A study of Mus musculus with 8 samples.

Results

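CpG-rich promoter peaks are ERRα ChIP-seq intervals that were annotated to the promoter of a gene and whose called interval held a CpG content, as a fraction, of at least 0.05. Over the 4 peak lists this rule took 3119 of 126927 peaks, which carried 2125 gene names. There were 884 such peaks in WT muscle, 916 in ERRα3SA muscle, 507 in WT liver and 812 in ERRα3SA liver. The study mapped ERRα (Esrra), an orphan nuclear receptor, on chromatin of skeletal muscle and liver, to compare where it binds in WT and in ERRα3SA animals. ERRα3SA mice carry a mutant receptor in which 3 serines of the N-terminal domain can no longer be phosphorylated. All animals were male C57BL/6N mice of 2 to 3 months. Each muscle list came from gastrocnemius and soleus pooled from 5 mice of a genotype and each liver list from tissue pooled from 2 mice, with 3 immunoprecipitations pooled per library according to the labels and 1 library per genotype and tissue. Differences between genotypes or tissues therefore have no replicate behind them and carry no p-value, and the 95% Wilson intervals given here cover counting error only. The point mutations themselves cannot be seen in peak lists.

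A CpG-rich promoter lies in a CpG island, a stretch that escaped the loss of CpG dinucleotides seen in most of the mammalian genome and that is usually unmethylated and open, often at genes that every cell uses. ERRα binds DNA through the ERR response element (ERRE), an extended nuclear receptor core site, and is known for its action on genes of the respiratory chain, the tricarboxylic acid cycle and fatty acid oxidation. Factors such as SP1, NRF1, YY1 and the ETS family bind GC-rich promoters through sites of their own.

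The sequences below show what the peaks were called on, from mm10 (GRCm38.p6, RefSeq). The first 6 are the stretches around an ERRE, TCAAGGTCA, in the central 300 bp of a CpG-rich promoter peak, with the element and any further AAGGTCA in capitals. Cox20, Cyth1 and Fam120aos are shown because theirs were the elements found at the same position in all 4 lists, and Sdhd, Timm9 and Esrra because they are metabolic, import and receptor genes discussed below. Cyth1 and Fam120aos were chosen after their values were seen. The stretch of Cox20, a factor for the assembly of cytochrome c oxidase, lay at chr1:178318658-178318686 (plus strand) and touched an annotated exon, as did those of Sdhd, at chr9:50603795-50603823 (plus), and Timm9, at chr12:71136256-71136284 (plus). Those of Cyth1, at chr11:118248873-118248953 (plus), Fam120aos, at chr13:48968751-48968831 (plus), and Esrra, at chr19:6922313-6922369 (plus), touched none.
Cox20: cgggaggttgTCAAGGTCAccaaagctag
Sdhd: tttcgagggcTCAAGGTCActctacaacc
Timm9: gtctgacagcTCAAGGTCAtcgagtggct
Cyth1: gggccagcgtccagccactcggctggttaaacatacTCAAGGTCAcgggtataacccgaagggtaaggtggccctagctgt
Fam120aos: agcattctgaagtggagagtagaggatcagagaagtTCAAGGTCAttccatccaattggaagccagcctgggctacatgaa
Esrra: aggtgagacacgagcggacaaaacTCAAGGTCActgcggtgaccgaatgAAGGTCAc

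The last is the 200 bases upstream of a transcription start site (TSS) of Med23, at chr10:24869786-24869985 (plus strand). It is shown because Med23 ranked near the top of all 4 lists and had no TCAAGGTCA in the central 300 bp of its peaks. Capitals mark the CpG dinucleotides, of which the stretch held 12.
Med23: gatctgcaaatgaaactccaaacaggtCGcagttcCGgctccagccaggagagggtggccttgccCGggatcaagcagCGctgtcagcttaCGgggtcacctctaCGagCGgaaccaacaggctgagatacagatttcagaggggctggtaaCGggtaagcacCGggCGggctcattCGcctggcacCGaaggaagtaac

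CpG-rich promoter peaks made up 3.48% of the WT muscle list (3.26 to 3.71), 1.81% of the ERRα3SA muscle list (1.70 to 1.93), 2.32% of the WT liver list (2.13 to 2.53) and 2.80% of the ERRα3SA liver list (2.61 to 2.99). Of the peaks annotated to promoters, 57.4% were CpG-rich in WT muscle, 47.5% in ERRα3SA muscle, 41.2% in WT liver and 42.2% in ERRα3SA liver. Their median CpG fraction ran from 0.0700 to 0.0785 and their median width from 536 to 605 bp. In WT muscle the median distance from peak centre to TSS was -29.5 bp, and 57.1% of the peaks were centred within 200 bp of it, against 31.2% of the CpG-poor promoter peaks. In the other lists 52.1 to 62.0% were. Chromosome X held 0, 2, 0 and 1 of the peaks, in the same order of lists, where it held 2.76% of the 11213 protein-coding genes with a CpG-rich promoter. Peaks of all kinds were few there too, at 0.136 to 0.289% of a list.

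As the tissue check, any interval within 20 kb of the TSS was found at 19 of 25 muscle marker genes in WT muscle and 21 in ERRα3SA muscle, against 11 and 13 in the liver lists. For liver markers the numbers were 14 of 25 in WT liver and 16 in ERRα3SA liver, against 5 and 11 in the muscle lists. No share over all genes is set beside these counts. Other genes had such intervals too, at 28, 29, 27 and 29 of 37 complex I genes in WT muscle, ERRα3SA muscle, WT liver and ERRα3SA liver. For 74 cytosolic ribosomal protein genes the numbers were 20, 26, 24 and 31. Of the marker genes 3 muscle markers and 1 liver marker have a CpG-rich promoter in the annotation. CpG-rich promoter peaks were named for 2 muscle markers, Eno3 and Actn2, and for no liver marker. There was 1 such gene in WT muscle, at the top 66.4%, 1 in ERRα3SA muscle, at 15.5%, and 1 in ERRα3SA liver, at 53.4%. With so few marker genes of this kind, the check cannot show whether CpG-rich promoter peaks tell the tissues apart.

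The number of CpG-rich promoter peaks was nearly the same in both genotypes of muscle and larger in ERRα3SA than in WT liver. The ratio of ERRα3SA to WT was 1.04 in muscle (0.945 to 1.14), where it was 1.54 (1.40 to 1.70) for CpG-poor promoter peaks and 2.04 for peaks outside promoters. In liver it was 1.60 (1.43 to 1.79) for CpG-rich promoters, 1.54 for CpG-poor ones and 1.32 outside promoters. When the longer list was shortened to the length of the other by score, the muscle ratio fell to 0.666 (0.600 to 0.739) and the liver ratio to 1.28 (1.14 to 1.44). The muscle ratio also depended on the score. It was 0.982 (0.878 to 1.10) for scores of 30 to 49 and 1.40 (1.12 to 1.75) for scores of 100 or more, the second of which was added after the data were seen. For peaks outside promoters the same classes gave 2.05 and 2.30.

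CpG-rich promoter peaks were concentrated at the top of each list. The Peak Score deposited with each interval, which is at least 30, was used here only to rank peaks within a list. The top 10% of a list held 24.7% of them in WT muscle (21.9 to 27.6), 28.7% in ERRα3SA muscle (25.9 to 31.7), 20.7% in WT liver (17.4 to 24.5) and 16.4% in ERRα3SA liver (14.0 to 19.1). For peaks outside promoters it held 9.63 to 9.91%, and for CpG-poor promoter peaks 17.2, 18.3, 15.7 and 15.9% in the same order of lists. In ERRα3SA liver the interval for CpG-poor promoter peaks (13.9 to 18.2) overlapped that for CpG-rich ones nearly in full. Among the 100 highest-scoring peaks, 16 in WT muscle, 19 in ERRα3SA muscle, 6 in WT liver and 9 in ERRα3SA liver were CpG-rich promoter peaks. CpG-poor promoter peaks numbered 5, 7, 8 and 10 there, and so were more in both liver lists. The share of CpG-rich promoter peaks among all peaks in WT muscle went from 2.74% for scores of 30 to 39 to 14.8% for scores of 200 or more, and in ERRα3SA liver from 2.32 to 4.68%. Most were nevertheless low, with a score under 50 for 69.5% of them in WT muscle, 65.8% in ERRα3SA muscle, 50.7% in WT liver and 45.1% in ERRα3SA liver.

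**Figure D1:**
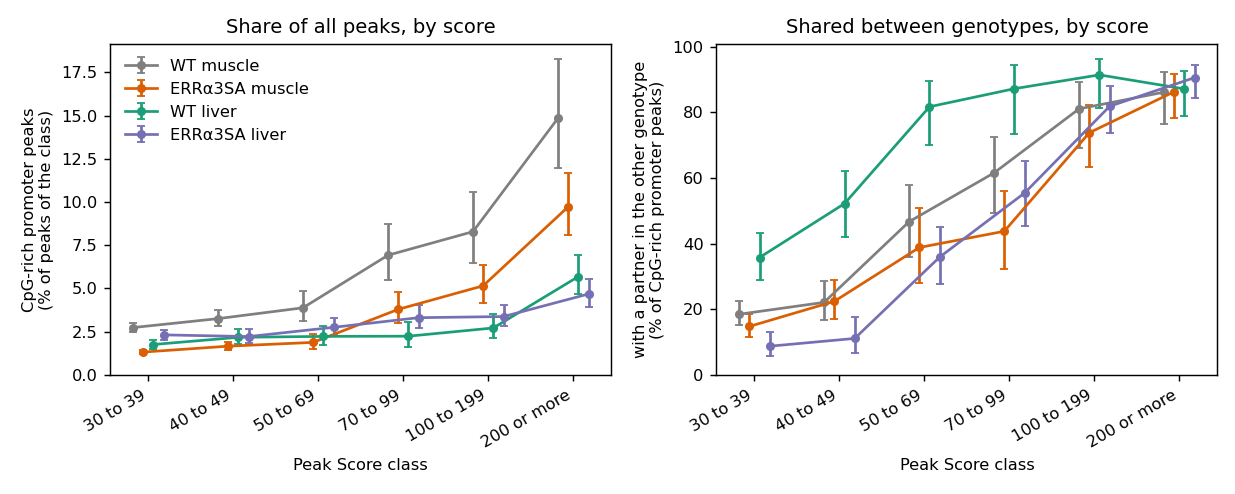
Left, CpG-rich promoter peaks as a percentage of all peaks of each Peak Score class; right, the percentage of them with an interval of the other genotype centred within 300 bp. Colours are the 4 lists, bars are 95% Wilson intervals, and both quantities were highest or nearly so in the highest class, at 14.8% and 86.1% in WT muscle.

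The leading genes were shared among the lists. Med23, a subunit of the Mediator complex, had a peak in all 4, at rank 62 of WT muscle, 57 of ERRα3SA muscle, 16 of WT liver and 11 of ERRα3SA liver, with scores of 844, 1390, 3018 and 3842. Polr2m, which encodes an RNA polymerase II associated factor, ranked 29, 65, 140 and 101, and so stood higher in muscle. Gpcpd1, a glycerophosphocholine phosphodiesterase, ranked 123, 37, 106 and 72. Rab21, an endosomal small GTPase, ranked 138, 168, 61 and 95, all within the top 0.543% of a list. Rb1cc1, a scaffold of the kinase complex that starts autophagy, ranked 92, 70, 159 and 77. Cox20 ranked 78, 63, 160 and 105. Nudt3, a diphosphoinositol polyphosphate phosphohydrolase, had a CpG fraction of 0.123 in WT muscle, and ranked 53, 52, 320 and 190. The Golgi GTPase Arf1 ranked 430, 241, 100 and 137, the zinc finger gene Zfp768 301, 160, 111 and 85, the nucleolar GTPase gene Gtpbp4 282, 323, 147 and 96, and Cox11, which delivers copper to cytochrome c oxidase, 600, 347, 112 and 117. By rank these last genes stood higher in liver, but as a percentage of the longer ERRα3SA muscle list Arf1 (0.476%) was level with liver (0.458 and 0.472%), and Zfp768 (0.316%) and Gtpbp4 (0.638%) lay between their liver values (0.509 and 0.293%, and 0.674 and 0.331%).

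The best-ranked CpG-rich promoter peak of muscle was at enolase, an enzyme of glycolysis. The peak at chr4:150236347-150237412 was named Eno1, at rank 14 of WT muscle, and the same locus was named Eno1 at rank 10 of WT liver and rank 5 of ERRα3SA liver, but Eno1b at rank 14 of ERRα3SA muscle, at a TSS beside it. A comparison by gene name thus placed it in 3 lists although each list had it. Glrx3, a monothiol glutaredoxin, carried its name in the WT lists alone, at the top 0.142% of muscle and 4.85% of liver, and its site was a CpG-rich promoter peak named Gm12669 at the top 0.166% of ERRα3SA muscle and 3.42% of ERRα3SA liver. Several other leading genes had an interval in a list whose CpG fraction was under the threshold. Ndufb4, a complex I subunit, ranked 45 and 24 in the muscle lists and had liver intervals at ranks 19 and 20 with fractions of 0.0442 and 0.0447. Ppia, the prolyl isomerase cyclophilin A, ranked 57, 34 and 59 and had an ERRα3SA liver interval at rank 47 with a fraction of 0.0493. Mtch2, a mitochondrial outer membrane protein, ranked 62, 120 and 160 and had an ERRα3SA liver interval at rank 334 with 0.0387. Mpv17l2, which acts in assembly of the mitochondrial ribosome, ranked 24 in WT muscle with 0.0758 and had intervals at ranks 15, 45 and 33 in the other lists with 0.0301 to 0.0448.

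At the threshold, the peaks just inside were at Mrps26 in WT muscle with 0.050036, and at St3gal3 in ERRα3SA muscle, Rbm47 in WT liver and Dnajc4 in ERRα3SA liver with 0.05. The promoter peaks just under it were at Snhg10 (0.0499), Fbln7 (0.0499), Acsl6 (0.0499) and Rbm47 (0.0499), in the same order of lists, and Rbm47 was thus inside in WT liver and outside in ERRα3SA liver. Between 0.05 and 0.055 there were 63 to 105 peaks in a list, and between 0.045 and 0.05 there were 49 to 96.

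Of the 2125 genes, 118 had a CpG-rich promoter peak in all 4 lists, 158 in 3, 320 in 2 and 1529 in 1 alone. Among those in 1 list, 497 were in ERRα3SA muscle, 489 in WT muscle, 382 in ERRα3SA liver and 161 in WT liver. The genes in all 4 lists had a median rank, averaged over their lists, at the top 6.10%, and those in 1 list at the top 44.8%. By name, WT and ERRα3SA muscle shared 274 genes, 31.0% of the WT and 29.98% of the ERRα3SA genes, and WT and ERRα3SA liver shared 263, 51.9% of the WT and 32.5% of the ERRα3SA genes. Merged into loci, the peaks made 2115 places, 131 of which were CpG-rich promoter peaks in each list, and 335 of which, or 15.8%, had an interval of any kind in each list. In 1 list alone, 1527 of the places, or 72.2%, were CpG-rich promoter peaks, but only 1079, or 51.0%, had an interval of any kind in 1 list alone. Counts by gene name and CpG threshold thus overstate how many sites were in a single list. No such count is given here for other classes of peak.

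**Figure D2:**
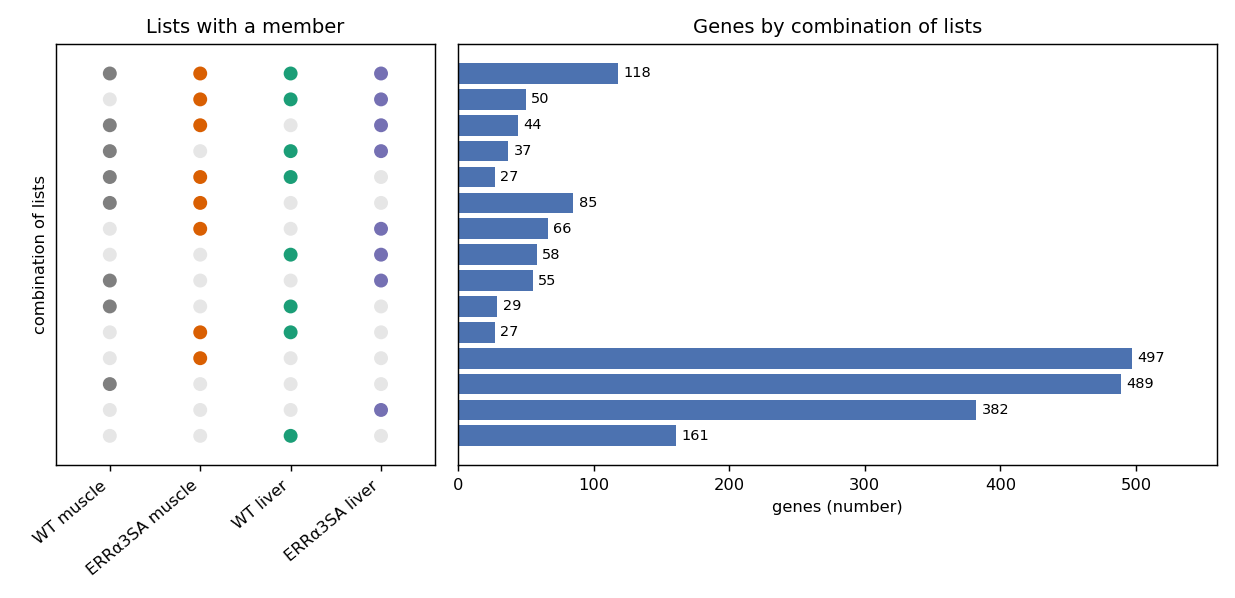
Genes with a CpG-rich promoter peak, by the combination of lists that held one. Filled circles on the left mark the lists, bars on the right are numbers of genes, with 118 in all 4 lists and 497, 489, 382 and 161 in a single one. Genes are counted by name and CpG threshold. Of the merged loci, 51.0% had an interval of any kind in 1 list alone.

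Between genotypes, 34.4% of the WT muscle peaks (31.3 to 37.6) had an ERRα3SA muscle interval centred within 300 bp, against 20.2% of all WT muscle peaks. In the other direction it was 33.2% (30.2 to 36.3), against 10.1% of all ERRα3SA muscle peaks. In liver 63.9% of the WT peaks (59.6 to 68.0) had an ERRα3SA partner, against 42.9% of all WT liver peaks, and 41.0% of the ERRα3SA peaks (37.7 to 44.4) had a WT partner, against 32.2%. For CpG-poor promoter peaks the shares were 27.1% in WT muscle and 18.2% in ERRα3SA muscle. They were 57.5% (53.8 to 61.0) in WT liver and 38.7% (35.9 to 41.6) in ERRα3SA liver, where the intervals of both classes overlapped. The share of CpG-rich promoter peaks with a partner followed the score. In WT muscle it was 18.5% for scores of 30 to 39 and 86.1% for scores of 200 or more, and in ERRα3SA liver 8.75 and 90.6%. For the same scores, peaks outside promoters had 11.8 and 86.4% in WT muscle and 7.55 and 88.9% in ERRα3SA liver. Where a CpG-rich promoter peak had a partner, the partner was itself one for 244 of 304 in muscle and for 259 of 324 WT liver peaks.

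Across tissues, 28.1% of WT muscle peaks (25.2 to 31.1) had a WT liver partner, against 11.7% of all peaks, and 45.4% of the WT liver peaks (41.1 to 49.7) had a WT muscle partner, against 13.6%. In ERRα3SA animals 40.1% of the muscle peaks (36.9 to 43.3) had a liver partner, against 11.5% of all peaks, and 39.2% of the liver peaks (35.9 to 42.6) had a muscle partner, against 20.1%. CpG-poor promoter peaks of the same lists had a partner in the other tissue in 21.9 to 23.9% and peaks outside promoters in 10.7 to 19.3%.

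Ranks of sites that were CpG-rich promoter peaks in both lists went together. Spearman's rho was 0.84 over 244 sites between the genotypes of muscle and 0.83 over 259 sites in liver, and 0.68 over 190 and 0.69 over 261 sites between tissues of WT and of ERRα3SA animals. These are descriptions over sites that share libraries and tied low scores, with no test. In muscle 168 of the 244 sites had the smaller top percentage in the longer ERRα3SA list, and in liver 182 of 259. The sites farthest apart in muscle, named after their values were seen, included Mapk8, at the top 66.4% in WT and 2.82% in ERRα3SA, and Elf1, at 5.26% and 64.8%. In liver the widest gap in percentage points was at Mir320, at 98.0% in WT and 18.0% in ERRα3SA, and the largest ratio at Mir466d, at 1.62% in WT and 43.2% in ERRα3SA.

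**Figure D3:**
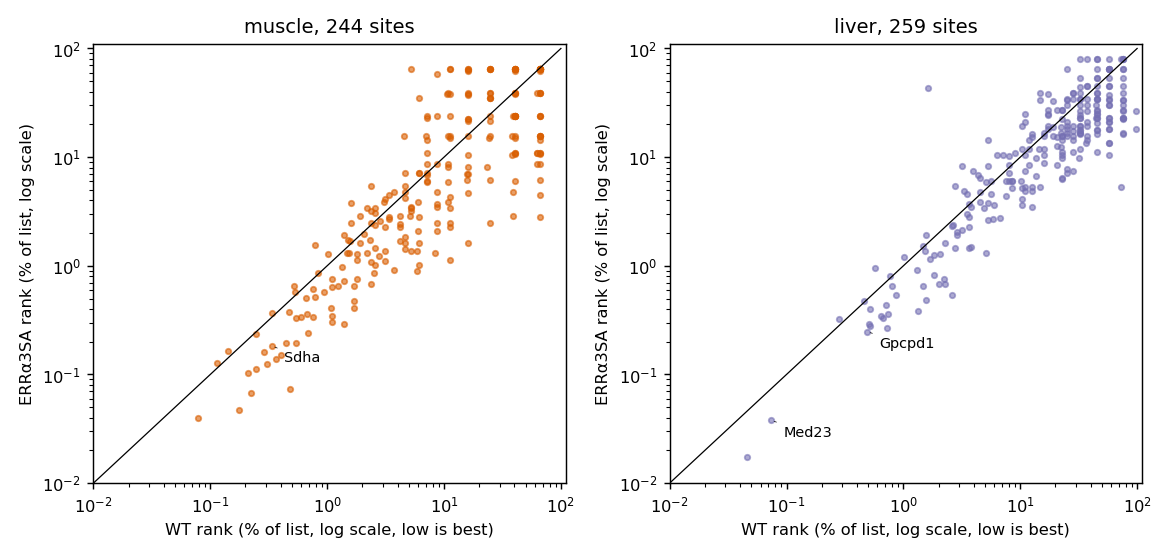
Rank in the WT list (x) against rank in the ERRα3SA list (y) of the 244 muscle and 259 liver sites that were CpG-rich promoter peaks in both, as percentage of the list from its top, on log axes with the line of equal rank. Each point is 1 site, and 168 muscle and 182 liver sites lay under the line.

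Peaks without any overlapping interval of the other genotype had a median place at the top 40.2% of WT muscle, 38.7% of ERRα3SA muscle, 57.4% of WT liver and 63.1% of ERRα3SA liver. In WT muscle the 3 highest were at Timm9, BC051226 and D430041D05Rik, all with a score of 81 at the top 6.07%. Timm9, a chaperone of the mitochondrial intermembrane space, carries the ERRE printed above and also had peaks at the top 8.51% of WT liver and 5.99% of ERRα3SA liver, so the site was absent from the ERRα3SA muscle list alone. In ERRα3SA muscle they were Sik3, a salt-inducible kinase, at the top 1.70%, Josd1, a deubiquitinase, at 2.40% and Mir320 at 3.17%. Each of these had a CpG-rich promoter peak in both liver lists, at the top 32.6% and 30.1% for Sik3, 28.5% and 7.48% for Josd1 and 98.0% and 18.0% for Mir320. In WT liver they were Tmem267 (11.8%), which both muscle lists held at 1.81 and 1.28%, the mitochondrial ribosomal protein gene Mrpl44 (11.9%) and Mir6546 (12.6%). In ERRα3SA liver they were Crat, carnitine acetyltransferase (8.39%), Sugct (10.9%) and Zfpm1, a cofactor of GATA factors (11.1%). Crat was present in both muscle lists at 6.07 and 5.17%. With 1 library per genotype these absences have no replicate check.

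Genes found in a single tissue were taken by name, so the peaks of both genotypes need not be the same site. In muscle of both genotypes and with no overlap in liver, the best-ranked were Hspa5, the chaperone of the endoplasmic reticulum, at the top 8.63% in WT and 8.67% in ERRα3SA, Nudt6 at 4.50 and 15.5%, and Bcl2l13, a mitochondrial outer membrane protein, at 15.6 and 6.12%. Hspa5 was not among the 244 muscle sites paired between genotypes. In liver of both genotypes and with no overlap in muscle they were Emc4, a subunit of the endoplasmic reticulum membrane complex, at 2.90 and 1.92%, Zfp871 at 11.9 and 11.8%, and Stat5b, a growth hormone responsive transcription factor, at 25.3 and 19.3%. The peaks of these genes therefore stood well under the leading sites of each list.

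The ERRE was less frequent in CpG-rich promoter peaks than elsewhere in a list, although more frequent than in CpG-rich promoters as a class. TCAAGGTCA, searched on both strands in the central 300 bp, was found in 1.92% of the WT muscle peaks (1.204 to 3.06), 2.07% of the ERRα3SA muscle peaks (1.33 to 3.22), 4.93% of the WT liver peaks (3.36 to 7.18) and 3.33% of the ERRα3SA liver peaks (2.30 to 4.79). Peaks outside promoters held it in 3.95, 4.31, 14.8 and 15.7%, and CpG-poor promoter peaks in 5.63, 4.84, 15.5 and 12.6%. TCAAGGTCA holds no CG dinucleotide, and the part of the choice by CpG content in these differences was not tested. Of GENCODE promoter windows, 250 bp before to 50 bp after a TSS, the element was in 0.41% of all and 0.20% of the CpG-rich ones. The shorter core AAGGTCA, which every ERRE contains, was in 9.95, 13.1, 23.3 and 17.9% of the CpG-rich promoter peaks and in 2.06% of CpG-rich promoters.

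The element was found mostly where a site was shared or high in its list. It was in 4.61% of WT muscle peaks with an ERRα3SA partner and in 0.517% of those without, in 4.61 and 0.817% for ERRα3SA muscle, in 7.21 and 0.626% for ERRα3SA liver, and in 7.72% of WT liver peaks with a partner. None of the 183 WT liver peaks without a partner held it, which allows up to 2.06% (upper Wilson limit). For scores of 200 or more it was in 9.72% of the WT muscle, 9.80% of the ERRα3SA muscle, 8.60% of the WT liver and 11.0% of the ERRα3SA liver peaks. Peaks outside promoters with such scores held it more often, in 15.4, 18.8, 27.8 and 26.9%. Their share rose with score too, from 2.05, 2.17, 7.46 and 7.32% for scores of 30 to 39. By gene, 11 of the 118 in all 4 lists and 16 of the 158 in 3 lists had the element in at least 1 list, against 9 of the 1529 in 1 list. A gene in more lists had more windows in which it could be found, and the part of this in the rise was not tested. Outside chromosome 18, 41 gene positions held an element in the central 300 bp of a CpG-rich promoter peak. Of these, 3 did so in all 4 lists under the same gene name.

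**Figure D4:**
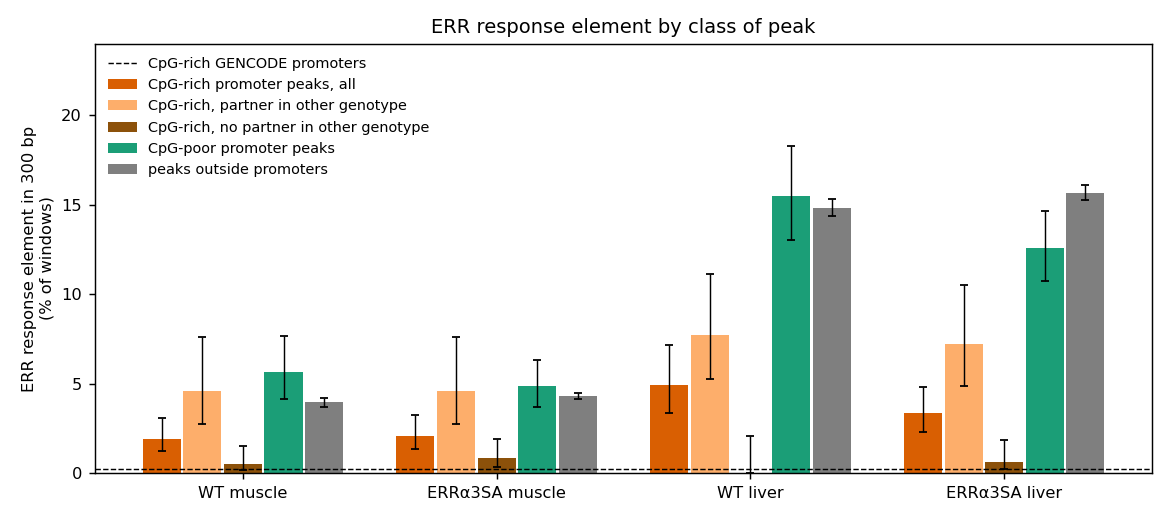
Percentage of central 300 bp windows with TCAAGGTCA, by list and class of peak, with 95% Wilson intervals. The dashed line is the 0.20% of CpG-rich GENCODE promoters; CpG-rich promoter peaks with a partner in the other genotype reached 4.61 to 7.72%, and those without stayed at or under 0.817%.

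Some of these elements lay in repeat-masked sequence. The reference writes repeat-masked bases in lower case, and 4 of 17 elements in WT muscle, 5 of 19 in ERRα3SA muscle, 8 of 25 in WT liver and 5 of 27 in ERRα3SA liver were masked, or 23.5, 26.3, 32.0 and 18.5%. Outside promoters 37.9, 41.1, 49.7 and 50.1% were. The element of Fam120aos printed above was masked and those of Cox20, Sdhd, Timm9, Cyth1 and Esrra were not.

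Most motifs of other promoter factors were more frequent in CpG-rich promoter peaks than outside promoters. The peaks were chosen by CpG content, and each of these factors' motifs, other than the CCAAT box, holds a CG dinucleotide. The comparison with peaks outside promoters therefore cannot separate the motifs from the choice of peaks. Most of the motifs were less frequent than in the GENCODE windows of CpG-rich promoters in general. Those windows are placed by the TSS and the peak windows by the centre of the interval. The part of this placement in the difference was not tested. The CCAAT box, CCAAT, was less frequent than in both, in 21.9 to 25.9% of CpG-rich promoter peaks against 31.6 to 34.3% outside promoters and 34.5% of CpG-rich promoters. The SP motif GGGGCGGGG was in 15.4 to 19.1% of CpG-rich promoter peaks, 1.30 to 2.05% of peaks outside promoters and 27.8% of CpG-rich promoters. The ETS motif CCGGAAG was in 12.4 to 17.2%, against 2.01 to 2.68% and 19.3%. The NRF1 motif was in 0.789 to 1.201%, against 2.33% of CpG-rich promoters, and the CRE TGACGTCA in 1.58 to 2.15%, against 3.69%. The E-box CACGTG was in 6.51 to 8.62%, against 4.57 to 5.33% outside promoters and 10.9%. The YY1 motif was not below CpG-rich promoters in every list, with 0.862 to 1.97% against 1.77%, and the intervals of the higher values include the latter. All were searched on both strands, and the SP and ETS letters cannot overlap those of the ERRE. Among CpG-rich promoter windows themselves, all placed alike, those of genes with a peak in any list held the ERRE in 0.58% and AAGGTCA in 4.41%, against 0.12% and 1.58% for genes without. The ETS motif was in 21.03 against 18.9%, the YY1 motif in 2.43 against 1.64%, the SP motif in 29.1 against 27.6% and the CRE in 4.07 against 3.62%. The NRF1 motif was in 2.19 against 2.36%, the E-box in 10.3 against 11.0% and the CCAAT box in 32.6 against 34.8%.

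Some promoter peaks lay between 2 genes, at shares below those of CpG-rich GENCODE promoter windows. These shares have unlike bases. An annotated protein-coding TSS lay inside 67.3, 67.9, 66.7 and 67.9% of the CpG-rich promoter peaks, in the same order of lists, whereas every window is built on one. The part of this in the lower shares was not tested. Head-to-head TSS of different genes within 1 kb were spanned or touched by 12.1% of CpG-rich promoter peaks in WT muscle, 10.6% in ERRα3SA muscle, 12.0% in WT liver and 12.2% in ERRα3SA liver, against 1.88 to 3.65% of the CpG-poor ones. Of CpG-rich GENCODE promoter windows, 19.9% were of this kind for genes with a peak and 14.2% for genes without. Sdha, Sdhd, Cox4i1, Atp5c1 and Ndufa2 are examples, and in such cases the gene named is the one with the nearer TSS, and binding at its neighbour cannot be told apart from it.

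Complex I, complex II and III, the ATP synthase and the tricarboxylic acid cycle were among the gene groups with the largest shares by gene name. A CpG-rich promoter peak was found in WT muscle at 6.84%, in ERRα3SA muscle at 7.07%, in WT liver at 3.92% and in ERRα3SA liver at 6.21% of the 11213 protein-coding genes with a CpG-rich promoter. For 5.69, 5.88, 3.16 and 5.03% of these genes an annotated TSS lay inside such a peak. The counts by name that follow can miss a site named for a neighbouring gene, so counts of genes with a TSS inside such a peak are given where they differ most. Of the 32 complex I genes with such a promoter it was found at 31.2, 43.8, 37.5 and 28.1%. Of all 37 complex I genes, the entry point of the respiratory chain, 10 had a peak in WT muscle, 14 in ERRα3SA muscle, 12 in WT liver and 10 in ERRα3SA liver, 20 in any list and 4 in all. These 4 were Ndufb5, at the top 0.763, 0.336, 0.857 and 0.544%, Ndufa2, at 1.69, 0.409, 1.84 and 1.25%, Ndufs3, at 6.07, 2.82, 22.8 and 6.40%, and Ndufb2, at 7.10, 5.96, 16.05 and 10.5%. Ndufs7 was found in all but WT muscle, at 0.0967, 0.513 and 0.279%.

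Among complex II and III genes 3, 4, 3 and 4 of 14 had a peak. The flavoprotein subunit Sdha ranked at the top 0.334% of WT muscle, 0.184% of ERRα3SA muscle, 1.47% of WT liver and 1.53% of ERRα3SA liver, and so stood higher in muscle. The membrane anchor Sdhd, whose muscle peaks held the ERRE printed above, was at 1.54, 1.31 and 1.94%, with an ERRα3SA liver interval at 1.62% and a CpG fraction of 0.0323. Cycs, cytochrome c, was at 2.56% of WT muscle and 22.4% of ERRα3SA liver, and its site was at 2.40% of ERRα3SA muscle under the name 5430402O13Rik. Complex IV had 1 of 14 in each list, Cox4i1, at 1.33, 0.971, 3.47 and 4.55%. The ATP synthase had 4, 5, 3 and 5 of 17 genes, and Atp5c1, the gamma subunit, was at 0.448, 0.195, 1.57 and 1.90%. Atp5j (coupling factor 6) and Usmg5, a small subunit of the dimer interface, also had peaks in all 4 lists.

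The tricarboxylic acid cycle and pyruvate entry had 7, 8, 4 and 6 of 26 genes by name, and 4, 5, 2 and 3 with a TSS inside such a peak. These included Ogdh, a subunit of the oxoglutarate dehydrogenase complex, at 1.09, 0.411, 5.87 and 2.72%, and Mdh2, mitochondrial malate dehydrogenase, at 11.3, 15.5, 22.5 and 16.7%. Mdh1, the cytosolic enzyme, was at 8.63, 2.47 and 14.7%, with an ERRα3SA liver interval under the threshold at 0.0441. Mitochondrial protein import had 5, 3, 5 and 7 of 30 by name and 4, 6, 5 and 6 by TSS, and the site of Timm23 was named Parg in ERRα3SA muscle. Among them were Hspa9, the motor chaperone of the matrix, at 0.688, 0.243, 5.07 and 1.30%, and Chchd4, the oxidoreductase of intermembrane space import, at 8.63, 3.50, 14.7 and 5.27%. Fatty acid oxidation had 3, 3, 1 and 3 of 20. Acadm, medium-chain acyl-CoA dehydrogenase, was at 1.49, 1.73 and 10.4%, with a WT liver interval at 28.5% and 0.0431, and Hadhb, of the trifunctional protein, was at 23.2, 8.20 and 24.9% in all but WT liver.

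**Figure D5:**
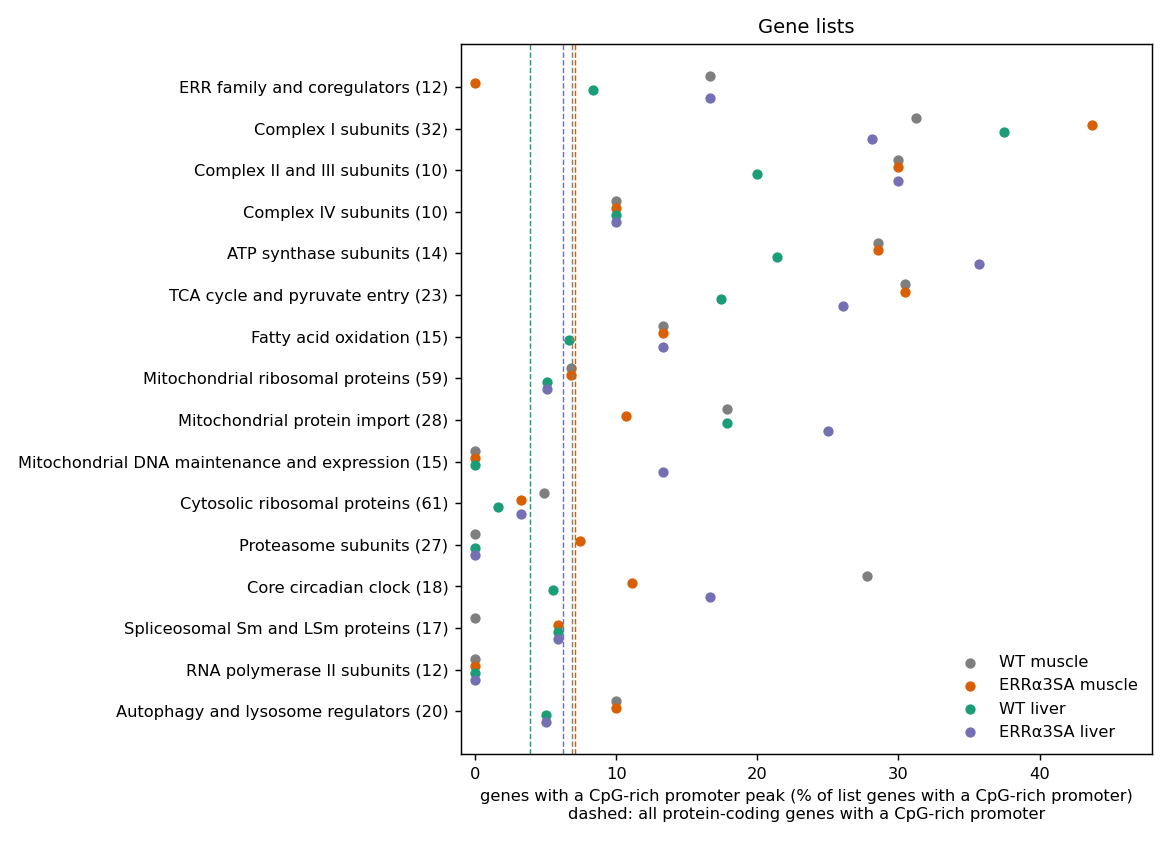
Percentage of the genes of each list that had a CpG-rich promoter peak under their name, out of those with a CpG-rich promoter (number in brackets), in the 4 peak lists. Dashed lines are the percentages over all 11213 such genes, 3.92 to 7.07%; complex I reached 28.1 to 43.8%, and RNA polymerase II subunits were at 0.

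Groups of other widely expressed genes stayed nearer to the share of all genes by name. Mitochondrial ribosomal proteins had 5 of 75 in each list, or 5.08 to 6.78% of those with a CpG-rich promoter. By TSS they had 7, 9, 8 and 7 of 75. Each of these was a larger share than the 5.69, 5.88, 3.16 and 5.03% by TSS of all genes with a CpG-rich promoter. Mrpl15 was at 1.40, 1.93 and 22.8% in all but ERRα3SA liver, and the site of Mrps18b at 1.91, 1.63, 4.56 and 3.90%, named Ppp1r10 in the ERRα3SA lists. Cytosolic ribosomal proteins had 3, 3, 2 and 3 of 74, with Rpl7a at rank 1781 of WT muscle and 7851 of ERRα3SA muscle. Proteasome subunits had 0, 2, 0 and 0 of 31, Psma6 at 14.2% and Psmd2 at 64.8% of ERRα3SA muscle. Spliceosomal Sm and LSm proteins had 0, 1, 1 and 2 of 20, and RNA polymerase II subunits had 0 of 12 in each list, with 1 by TSS in ERRα3SA liver. Genes for maintenance and expression of mitochondrial DNA had a peak in ERRα3SA liver alone, 2 of 15, the helicase Twnk at 53.4% and the polymerase Polg at 80.6%.

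The core clock list had 5, 2, 1 and 3 of 19 genes, which was 27.8% of those with a CpG-rich promoter in WT muscle and 5.56% in WT liver, mostly low in rank, and 2, 0, 0 and 0 by TSS. Tef, a PAR bZIP factor, was at 7.10, 11.0 and 65.0% in all but WT liver, Ciart, a transcriptional repressor of the clock, at 7.10, 57.4 and 65.0% in all but WT muscle, Clock at 66.4% of WT muscle and 97.1% of ERRα3SA liver, and Npas2 at 24.6% of WT muscle. Among regulators of autophagy and lysosomes Tfeb, the master factor of lysosomal genes, had a peak in all 4 lists, at 5.26, 2.27, 4.56 and 6.40%, and Ulk2 in both muscle lists.

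The receptor gene itself stood at the very top. The promoter interval of Esrra was at rank 8 of WT muscle, 5 of WT liver and 3 of ERRα3SA liver, and the CpG fraction passed the threshold in WT liver, with 0.0504, and missed it in the others, with 0.044996 and 0.0465. In ERRα3SA muscle no promoter-annotated interval carried the name Esrra, although an interval of that list overlapped the WT one. Of the other 13 ERR family and coregulator genes, Ncoa2, a p160 coactivator, had a peak at 24.6% of WT muscle and 27.3% of ERRα3SA liver, Nrip1, a corepressor, at 40.2% of WT muscle, and Ncoa3 at 65.0% of ERRα3SA liver. None of these 4 peaks overlapped an interval of the other genotype or of the other tissue.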

How the data were processed

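ERRα ChIP-seq peak lists of muscle and liver from WT and ERRα3SA mice were used, 1 per genotype and tissue. The 4 input libraries hold no file used here. Per the labels and the study's methods, the authors trimmed paired-end reads with Trimmomatic 0.36, aligned them to mm10 with BWA 0.7.12, removed duplicates with Picard 2.0.1, called peaks against input with MACS2 2.1.1.20160309 and annotated them with HOMER 4.9.1. The deposited Peak Score is a score with no fixed unit. The authors' CpG and GC values are each a fraction, over the interval as called. Positions and distances to the TSS are in bp, as the authors' annotation gives them. No read numbers come with the lists, so the depth is unknown and no value is weighted by it.

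Ranks gave ties the best place and are also stated as a percentage of the list. Partners had centres within 300 bp. Motifs were searched in the central 300 bp of GRCm38.p6. The GC value of every peak was the same when computed from that genome (tolerance 1e-05). CpG-rich promoters for comparison came from GENCODE vM21 protein-coding TSS with the same CpG threshold. Intervals are 95% Wilson intervals, and that of a ratio follows from the share of 1 list in the sum. Named genes were those of the 10 highest-scoring peaks of each list, the 3 best per list without overlap in the other genotype, the 3 best per tissue without overlap in the other, up to 4 per gene group, all receptor family and coregulator genes with a peak, and those at the CpG threshold. Some items of this rule are not reported here. The peaks, gene groups and this rule were chosen with earlier results of these data known. Overlap and motif searches were tested on simulated data. Alternatives were other CpG thresholds, CpG of the central 300 bp, scores of at least 50, equal list lengths, other partner rules and other forms of the element. Tables were handled with pandas 2.3.3 and numpy 2.4.6 in Python 3.11.15, intervals computed with scipy 1.17.1, sequences read with pysam 0.24.0 and plots drawn with matplotlib 3.10.9.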

Additional observations from a re-analysis of the deposited data

Results flagged for a closer look

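Several shares differed between ERRα3SA and WT in opposite directions in muscle and liver. With 1 library per group, none of these differences was tested. The share of CpG-rich promoter peaks in the list, ERRα3SA minus WT, differed by -1.67 percentage points in muscle and 0.472 in liver. Their share of promoter peaks differed by -9.85 points in muscle and 0.996 in liver. The share with a partner in the other tissue differed by 12.0 points in muscle and -6.20 in liver, and the share in the top 10% of the list by 4.05 points in muscle and -4.33 in liver. The share with TCAAGGTCA differed by 0.151 points in muscle, where the intervals of both genotypes overlap nearly in full, and by -1.61 in liver, where they also overlap. The ERRα3SA lists were longer in both tissues, with 50647 against 25427 peaks in muscle and 29040 against 21813 in liver. With lists of equal length, the ratio of ERRα3SA to WT in the number of CpG-rich promoter peaks was 0.666 in muscle and 1.28 in liver. For the other shares the part of list length was not tested.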

How the results depend on the processing

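No paired analysis was possible because each genotype and tissue has 1 library and no result comes from a test. Of 63 alternative values, 28 stayed within the interval of the main value (or within 1.5 times a count) and 35 moved. CpG thresholds of 0.04 and 0.06 moved neither ratio. The muscle ratio, whose interval includes 1, became 1.16 for scores of at least 50, 1.40 for at least 100 (added after seeing the data) and 0.666 for equal list lengths, which gave 1.28 in liver. For scores of at least 50 the share of the list became 6.66, 3.99, 3.05 and 3.43% in WT muscle, ERRα3SA muscle, WT liver and ERRα3SA liver, and the share with a partner in the other genotype 61.1, 51.1, 85.6 and 50.9%. A partner in the other genotype was found for 44.0, 41.8, 70.6 and 45.8% by shared bases and 47.4, 44.98, 71.8 and 48.9% within 1000 bp. A partner in the other tissue was found for 35.4, 48.5, 54.4 and 47.4% by shared bases, and for 54.1, 66.1 and 50.4% in the first 3 lists with scores of at least 50. The element was found in 5.20, 6.11, 9.27 and 5.91% of whole intervals, and as TNAAGGTCA in 4.37, 7.69 and 5.67% of the last 3 lists. Genes in all 4 lists numbered 283 when every promoter peak counted, 82 for scores of at least 50 and, as merged loci (added after seeing the data), 131. The fewer peaks left by a score minimum and the wider rules for a partner follow from how they were built; the cause of the other moves was not tested. Depth is unknown, so an absent peak is no evidence of absent binding.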
